A study of Mus musculus with 12 samples.

Results

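The lysosome genes followed here are enzymes, membrane proteins, proton pump subunits and regulators of the lysosome. They were chosen by what their proteins do, with earlier results of these data known. Of 41 listed symbols, 40 were found in the deposited kidney expression table, and all 40 reached at least 1 FPKM (fragments mapped to a gene, scaled to transcript length and to all mapped fragments) in at least 4 of the 12 mice. They stood among 13148 genes that reached this level, of 22053 rows. Galns was not analysed here. By role, the 40 genes were 11 proteases, 9 enzymes that break down glycans, 7 genes of lipid breakdown or export, 6 membrane proteins, 4 subunits of the proton pump and 3 regulators.

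RNA from whole kidneys of 12 C57BL/6 mice was sequenced, with 4 mice in each of 3 groups. Control mice were kept on a control diet and CKD mice were fed 0.2% adenine from 8 to 16 weeks of age, a diet whose crystals injure the tubules and give chronic kidney disease with fibrosis. Both groups received weekly intraperitoneal PBS. CKD+Fe mice had the same adenine diet and received weekly intraperitoneal iron dextran at 0.5 g/kg. Each mouse gave 1 library, so that the spread within a group is the spread between mice. Whole tissue was sequenced, so more cells of a type and more RNA per cell cannot be told apart in any value below.

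Lysosomes are acidic organelles in which proteins, glycans and lipids delivered by endocytosis, phagocytosis and autophagy are broken down. Most of their hydrolases work only at the low pH that the V-type proton pump keeps up, and a coat of heavily glycosylated membrane proteins, led by LAMP-1 and LAMP-2, shields the membrane. The transcription factors TFEB and TFE3 bind E-box sequences in the promoters of many lysosomal genes and raise their transcription together. In the kidney, proximal tubule cells use lysosomes to degrade protein taken up from the filtrate, and macrophages use them to digest debris and antigens and to release iron from engulfed red cells.

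The summed FPKM of all genes ran from 607951 to 707843 in control mice, from 503438 to 603556 in CKD mice and from 536139 to 572074 in CKD+Fe mice, and 1 read was worth 0.037 to 0.0546 FPKM in a transcript of 1 kilobase, as read from the steps between low values. The median gene was 0.50 higher in CKD than in control mice on the log2 scale as deposited. After the mice were rescaled by the median of gene ratios it was 0.012 higher, and after quantile normalization 0.029 lower. A change of about 0.50 as deposited was thus the typical gene's change, and changes below are given as deposited and rescaled. Control mouse 042301, CKD mouse 110310 and CKD+Fe mouse 042702 stood apart, with 595, 805 and 442 genes at least 2-fold from the rest of their group, compared with 41 to 225 in the other 9 mice. These 3 mice held the highest or the lowest value of their group for 30, 30 and 32 of the 40 lysosome genes. The other 9 mice did so for 7 to 25 of them. Results were also computed without the 3 mice. Control mouse 042301 had 893 FPKM of 9 urothelium and papilla markers, against 93.6 to 256 FPKM in the other control mice, the lowest sum of proximal tubule markers (5974 FPKM) and the highest of macrophage markers (349.6 FPKM) among control mice. The part of this make-up in its lysosome gene values was not tested. Markers of kidney tissue were present in every group, and the 14 proximal tubule markers summed to 5974 to 8797 FPKM in control mice, 1130 to 2076 FPKM in CKD mice and 1208 to 2986 FPKM in CKD+Fe mice.

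The promoter sequences of the genes are shown first, because an E-box in them is the site that TFEB and TFE3 are known for. RefSeq promoter windows on GRCm38.p6, from 250 bases before to 50 bases after the transcription start, were matched for 35 of the 40 genes. Asah1, Npc1, Ctsb, Atp6v1h and Ctsh were not matched. The letters CACGTG, which read the same on both strands, were found in 13 of the 35 windows (37.1%), compared with 8.09% of the 27025 genes that have a window. The longer palindrome TCACGTGA, which contains CACGTG, was found in 7 of 35 (20%), compared with 1.12% of all genes. The stretches below are those of the Lamp1 window, which holds 4 E-boxes, and of 7 genes with E-boxes taken from across the range of changes in CKD. They are written 5′ to 3′ along the gene's strand with CACGTG in capitals.
Lamp1 (chr8:13159081-13159160, plus strand): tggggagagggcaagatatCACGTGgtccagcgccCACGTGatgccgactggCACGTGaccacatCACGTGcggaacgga
Mcoln1 (chr8:3500459-3500488, plus strand): ttcaggcgccccgctCACGTGaccgcggcg
Ctsd (chr7:142387908-142387937, minus strand): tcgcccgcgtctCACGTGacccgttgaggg
Gla (chrX:134601216-134601245, minus strand): gtaagcgattgatCACGTGagcatctacgt
Cln3 (chr7:126583342-126583371, minus strand): ctcacgggtactgtCACGTGacccccaacc
Lgmn (chr12:102439113-102439162, minus strand): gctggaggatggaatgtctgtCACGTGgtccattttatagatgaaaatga
Ctsa (chr2:164833743-164833772, plus strand): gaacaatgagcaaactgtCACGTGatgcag
Glb1 (chr9:114401008-114401057, plus strand): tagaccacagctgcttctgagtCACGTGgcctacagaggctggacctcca

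In the GENCODE M21 annotation the stretches of Lamp1, Lgmn and Glb1 lie outside exons. Those of Mcoln1, Ctsd, Cln3 and Ctsa lie in an annotated exon of the same gene, and that of Gla lies in an exon of its neighbour Hnrnph2. The 3 proteases with the largest rises in CKD, Ctss, Ctsc and Ctsk, had no CACGTG in their windows. Their promoters are shown for contrast, with capitals marking a pair of GAAA runs with any 2 bases between them, as in an interferon response element, in Ctss, and a match on the opposite strand to GAGGAAGT, the letters bound by the myeloid factor PU.1, in Ctsc. The Ctsk stretch holds neither motif and is written without capitals. None of these 3 stretches lies in an exon.
Ctss (chr3:95526726-95526785, plus strand): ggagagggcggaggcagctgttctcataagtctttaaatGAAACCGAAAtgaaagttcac
Ctsc (chr7:88277909-88277966, plus strand): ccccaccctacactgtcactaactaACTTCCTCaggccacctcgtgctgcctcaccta
Ctsk (chr3:95499130-95499209, plus strand): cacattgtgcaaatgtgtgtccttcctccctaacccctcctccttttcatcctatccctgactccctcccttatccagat

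Both strands were searched for each motif. GAGGAAGT was found in the windows of 4 of 35 genes, Ctsc, Ctss, Gla and Gusb (11.4%, compared with 3.69% of all genes), and the spaced pair of GAAA runs in those of Ctss and Lamp1 (5.71%, compared with 3.99%). The 13 genes with CACGTG had a median log2 change in CKD of 0.17 as deposited, from -1.004 for Glb1 to 1.58 for Ctsd, and the 22 genes without it had a median of 0.41. A match describes the letters in the window only, and no binding was measured. The 7 genes with TCACGTGA had a median change of 0.32, and the 28 genes without it had a median of 0.28.

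**Figure D1:**
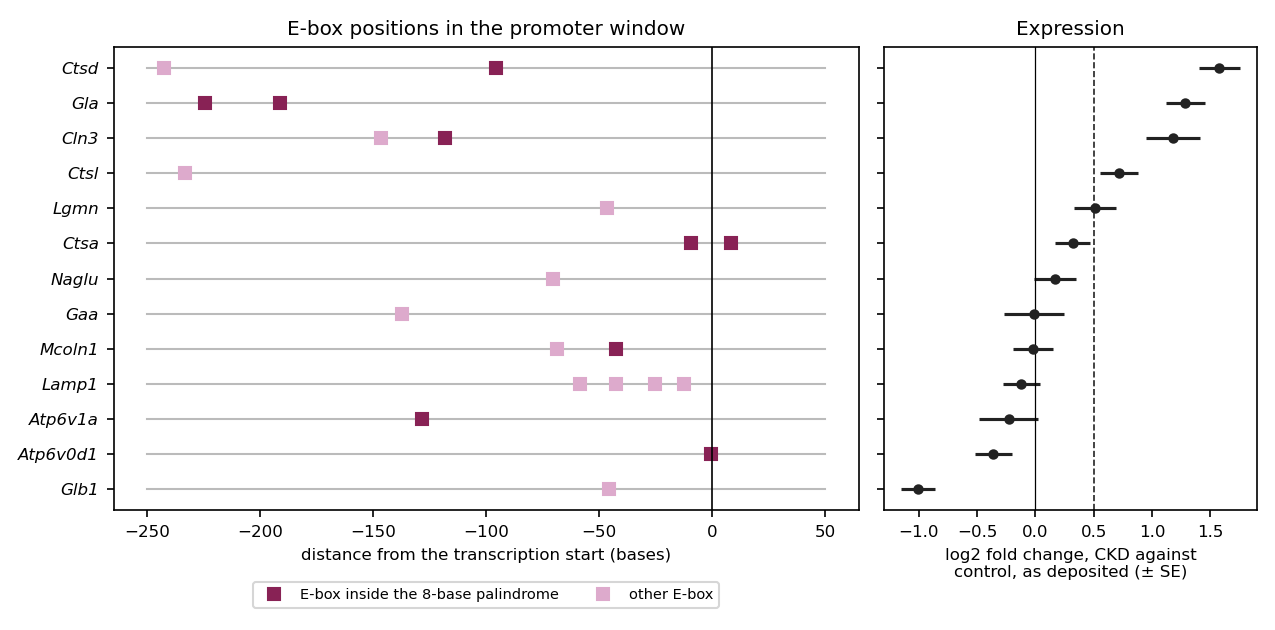
E-box positions in the promoter windows of 13 lysosome genes (left, distance from the transcription start in bases, darker squares where the E-box lies in the 8-base palindrome) beside the log2 fold change of CKD compared with control mice as deposited (right, points with SE, 4 mice a group; the dashed line is the median of all genes, 0.50). Genes with the palindrome are found from the top of the plot (Ctsd, 1.58) to near its bottom (Atp6v0d1, -0.36).

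The kidneys of CKD mice held more transcript of a group of lysosomal proteases and less of the sialidase and β-galactosidase pair than those of control mice. Of the 40 genes, 18 rose (45%) and 4 fell (10%) as deposited, compared with 54.6% and 13.3% of all genes tested (limma on log2(FPKM + 1), Benjamini-Hochberg adjusted p under 0.05 over 13148 genes). After rescaling, 12 were higher (30%, all genes 28.8%) and 14 lower (35%, all genes 29.3%). With quantile normalization the counts went the other way, with 19 higher (47.5%, all genes 23.3%) and 3 lower (7.5%, all genes 25.6%). Under all 3 scalings, that is as deposited, rescaled and quantile normalized, 11 genes rose (27.5%, all genes 18.3%) and 3 fell (7.5%, all genes 12.3%). The 11 were Ctsb, Ctsc, Ctsd, Ctsk, Ctss, Gla, Hexa, Manba, Npc2, Cln3 and Scarb2, and the 3 were Glb1, Neu1 and Smpd1. The median change of the 40 genes was 0.34 as deposited, -0.22 rescaled and 0.36 with quantile normalization, compared with 0.50, 0.012 and -0.029 for all genes. Without the 3 mice that stood apart, 18 were higher (45%, all genes 59.4%) and 7 lower (17.5%, all genes 15.7%) as deposited, and 12 higher (30%, all genes 34.1%) and 19 lower (47.5%, all genes 33.9%) after rescaling.

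Among the proteases, 7 of 11 rose and none fell as deposited, with a median change of 0.72. After rescaling 5 were higher and 2 lower, and with quantile normalization 9 were higher and none lower. Of all genes, 54.6% were higher and 13.3% lower as deposited, 28.8% and 29.3% after rescaling, and 23.3% and 25.6% with quantile normalization. These shares stand beside the counts of the other roles below as well. Cathepsin S (Ctss, ENSMUSG00000038642, chromosome 3, 95526786 to 95556403 on GRCm38) cuts the invariant chain during antigen presentation and is known as a protease of macrophages and dendritic cells. It was measured at 17.8, 18.6, 32.2 and 28.5 FPKM in control mice, 324, 635, 391 and 410.1 FPKM in CKD mice and 605, 272, 439 and 378 FPKM in CKD+Fe mice, where the values follow the mice numbered 012811, 012822, 042301 and 042310, then 021320, 022301, 110310 and 120102, then 042702, 062910, 111710 and 122320, here and below. All CKD mice were above all control mice. The mean rose 18.1-fold, with a log2 change of 4.12 (SE 0.27, adjusted p = 8.49e-08), or 3.56 after rescaling.

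Cathepsin K (Ctsk, chromosome 3, 95499256 to 95509362), the collagen-degrading protease of osteoclasts, lies next to Ctss. It was at 3.68, 2.92, 4.96 and 3.81 FPKM in control mice, 40.1, 60.6, 41.3 and 49.3 FPKM in CKD mice and 51.4, 29.4, 30.9 and 49.2 FPKM in CKD+Fe mice, with no overlap between control and CKD mice. It rose 12.4-fold in CKD, by 3.33 on the log2 scale (SE 0.21, adjusted p = 6.23e-08; 2.83 rescaled). Cathepsin C (Ctsc, chromosome 7, 88278085 to 88310888), which activates the serine proteases of immune cell granules, was at 12.7, 10.7, 13.6 and 17.7 FPKM, 90.7, 149, 88.5 and 91.4 FPKM and 79.0, 85.4, 91.1 and 75.9 FPKM in the same order of groups. Its rise was 7.68-fold (log2 2.84, SE 0.18, adjusted p = 7.57e-08; 2.29 rescaled), and CKD mouse 022301 stood above the other 3 CKD mice, which lay within 88.5 and 91.4 FPKM. This mouse also had the highest Ctss and Ctsk among the CKD mice and the highest sum of 16 macrophage and monocyte markers, 4688 FPKM. CKD mouse 110310 had the next highest sum, 3557 FPKM, with the lowest Ctsc and the second lowest Ctss and Ctsk of the group. CKD+Fe mouse 042702, with the highest sum of its group, 4469 FPKM, had the highest Ctss and Ctsk and the second lowest Ctsc.

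Those 16 markers were higher in CKD mice than in control mice. Their sum was 170.3 to 349.6 FPKM in control mice, 2242 to 4688 FPKM in CKD mice and 2159 to 4469 FPKM in CKD+Fe mice, none was at 0 throughout a group, and 16 of 16 rose in CKD as deposited and after rescaling. Lyz2, the lysozyme of myeloid cells, went from a mean of 48.3 ± 28.1 FPKM in control mice (SD, n = 4) to 1276 ± 450 FPKM in CKD mice (SD, n = 4). Markers of other cells rose as well. The 10 fibroblast and myofibroblast markers summed to 100.7 to 136 FPKM in control mice and 607 to 1055 FPKM in CKD mice, and 10 of 10 rose. The 8 markers of tubule injury went from 637 to 919.7 FPKM in control mice to 12065 to 21648 FPKM in CKD mice, and 8 of 8 rose. The 6 neutrophil markers, 2 of them at 0 in every control mouse, went from 1.35 to 5.70 FPKM to 53.6 to 213.6 FPKM, and the 3 that could be tested rose. These marker lists were chosen with earlier results of these data known, so their counts are not independent of the data. Of all genes, 54.6% rose as deposited and 28.8% after rescaling. The part of any of these cells in the rise of Ctss, Ctsk and Ctsc was not tested.

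Cathepsin D (Ctsd, chromosome 7, 142375911 to 142388038), the main aspartic protease of lysosomes, was the protease with the highest level. It was measured at 417, 444, 425 and 421 FPKM in control mice, a narrow range, then 943, 1328, 1479 and 1428 FPKM in CKD mice and 1597, 1188, 1039.9 and 1219.5 FPKM in CKD+Fe mice. The level rose 3.03-fold in CKD (log2 1.58, SE 0.18, adjusted p = 6.63e-06; 1.001 rescaled). Of its 50-base words, 32.4% also occur in the read-through gene Gm49369, so reads could have been split between them. Cathepsin B (Ctsb), an endopeptidase and carboxypeptidase found in most cells, ranged from 159 to 167 FPKM in control mice and from 261 to 449 FPKM in CKD mice, and rose by 1.11 (SE 0.18, adjusted p = 0.000122; 0.54 rescaled). Of its exonic bases, 12.8% overlap Fdft1 on the opposite strand, and whether the quantification used the strand is not given in the sources used here.

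The other proteases depended on the scaling. Cathepsin L (Ctsl), an endopeptidase abundant in kidney epithelium, was at 268 to 349 FPKM in control mice and 398 to 619 FPKM in CKD mice and rose by 0.72 as deposited (adjusted p = 0.00151), but its rescaled change of 0.14 was not called. Of its exonic bases, 26.8% overlap Gm49230 on the same strand or Gm47123 on the opposite strand, and 6.46% of its 50-base words also occur in other genes. Legumain (Lgmn), an asparaginyl endopeptidase with a strong expression in proximal tubules, was measured at 352, 375, 245 and 375 FPKM in control mice, 355, 497, 503 and 564 FPKM in CKD mice and 439.6, 530.1, 459.8 and 514 FPKM in CKD+Fe mice. Its CKD and control values overlapped, and it was called higher at 0.51 as deposited (adjusted p = 0.0208), with -0.067 after rescaling. The call was lost without control mouse 042301 (0.37, adjusted p = 0.0568) or CKD mouse 120102 (0.43, adjusted p = 0.0651), whereas it had a log2 change of 0.80 with quantile normalization.

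Cathepsin A (Ctsa), the carboxypeptidase that protects β-galactosidase and the sialidase NEU1 in a complex with them, was at 142, 172, 154 and 169 FPKM in control mice, 148, 230.4, 222 and 206 FPKM in CKD mice and 261, 207, 224 and 219 FPKM in CKD+Fe mice. Only CKD mouse 021320 overlapped the control range, and the change was 0.32 as deposited (adjusted p = 0.0739) and -0.25 rescaled. It was called higher without that mouse (0.46, adjusted p = 0.00906) and with quantile normalization (0.67, adjusted p = 0.00278). Of its exonic bases, 17.4% overlap Neurl2 and Pltp on the opposite strand. Cathepsin Z (Ctsz), a carboxypeptidase of myeloid cells among others, was at 104, 114, 115 and 98.5 FPKM, 109, 189, 229 and 133 FPKM and 256, 139.8, 140.2 and 146 FPKM in the same order. The 2 highest of these 12 values were those of CKD+Fe mouse 042702 and CKD mouse 110310, which stood apart, and the change in CKD was 0.55 (adjusted p = 0.0523; -0.023 rescaled). It was called without CKD mouse 021320 (0.73, adjusted p = 0.0139), without CKD mouse 120102 (0.63, adjusted p = 0.0469), without the 3 mice that stood apart (0.41, adjusted p = 0.0498), with the 2 groups fitted alone (0.55, adjusted p = 0.0456) and with quantile normalization (0.77, adjusted p = 0.0127).

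Cathepsin H (Ctsh), an aminopeptidase, and TPP1 (Tpp1), which removes tripeptides, were not called as deposited, at -0.10 and -0.088. Ctsh was at 189 to 246 FPKM in control mice and 168 to 223 FPKM in CKD mice, and Tpp1 was at 75.7 to 87.8 FPKM in control mice and 61.3 to 88.8 FPKM in CKD mice. Both were lower after rescaling, at -0.68 (adjusted p = 0.00116) and -0.66 (adjusted p = 0.000509), and had positive changes with quantile normalization, of 0.29 and 0.00052, so no direction is given for them.

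The glycan enzymes split. As deposited 4 of 9 rose and 2 fell, and after rescaling, as with quantile normalization, 3 were higher and 2 lower. Neuraminidase 1 (Neu1, chromosome 17, 34931253 to 34935953), the lysosomal sialidase, was measured at 148, 165, 191 and 212 FPKM in control mice, 71.6, 65.2, 104 and 81.9 FPKM in CKD mice and 80.9, 96.0, 91.8 and 85.6 FPKM in CKD+Fe mice. Every CKD mouse was below every control mouse, and the mean fell to 0.451 of control (log2 -1.15, SE 0.16, adjusted p = 3.42e-05; -1.72 rescaled and -0.90 quantile normalized). β-Galactosidase (Glb1, chromosome 9, 114401076 to 114474376), which removes terminal galactose from gangliosides and keratan sulfate, was at 103, 113, 96.5 and 109 FPKM, 49.7, 47.5, 66.6 and 46.4 FPKM and 45.8, 64.6, 47.7 and 47.1 FPKM in the same order. It fell to 0.498 of control (log2 -1.004, SE 0.15, adjusted p = 5.32e-05; -1.58 rescaled and -0.92 quantile normalized), again without overlap. Of its 50-base words, 4.26% also occur in Tmppe or a pseudogene.

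Proximal tubule markers fell in CKD as well, 13 of 14 as deposited, compared with 13.3% of all genes. Their median change was -1.73 on the log2 scale, and their list too was chosen with earlier results known. Control mouse 042301 had the lowest sum of these markers among control mice, with the second highest Neu1 and the lowest Glb1. Slc7a13, an amino acid transporter of the late proximal tubule, fell by 4.49 (adjusted p = 1.74e-05). The part of proximal tubule cells in the falls of Neu1 and Glb1 was not tested.

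Rising glycan enzymes were Hexa, Gla, Manba and, as deposited but not rescaled, Gusb. The α subunit of β-hexosaminidase (Hexa, chromosome 9, 59539667 to 59565105), which degrades the ganglioside GM2, was at 33.9, 32.6, 37.5 and 36.4 FPKM in control mice, 83.1, 96.0, 135 and 77.0 FPKM in CKD mice and 154, 84.4, 83.3 and 72.6 FPKM in CKD+Fe mice. The level rose 2.78-fold in CKD (log2 1.42, SE 0.22, adjusted p = 8.92e-05; 0.85 rescaled), and within each group the highest value was that of the mouse that stood apart. Of its exonic bases, 12.8% overlap Tmem202 on the opposite strand. α-Galactosidase A (Gla, chromosome X, 134588149 to 134601125), the enzyme missing in Fabry disease, had low levels of 2.15, 2.14, 2.40 and 2.47 FPKM in control mice, 6.09, 8.86, 5.67 and 7.87 FPKM in CKD mice and 8.55, 5.16, 5.88 and 7.53 FPKM in CKD+Fe mice. The groups of CKD and control mice did not overlap, and the rise was 3.11-fold, or 1.29 on the log2(FPKM + 1) scale, which understates low genes (SE 0.17, adjusted p = 2.31e-05; 0.84 rescaled). β-Mannosidase (Manba) rose from 16.01 to 27.7 FPKM in control mice to 30.6 to 58.9 FPKM in CKD mice, by 1.05 (adjusted p = 0.000487; 0.49 rescaled).

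β-Glucuronidase (Gusb), which acts on glucuronic acid ends of glycosaminoglycans, was at 22.8, 26.3, 27.1 and 31.0 FPKM in control mice, 30.0, 43.0, 44.2 and 32.4 FPKM in CKD mice and 46.7, 29.9, 29.3 and 32.6 FPKM in CKD+Fe mice. The groups overlapped, the change was 0.45 (adjusted p = 0.0330) as deposited and -0.11 rescaled, and the call was lost without control mouse 012811 or 012822 or CKD mouse 022301 or 110310, with adjusted p from 0.0643 to 0.0969. Naglu, which removes N-acetylglucosamine from heparan sulfate, was at 21.7, 24.3, 24.4 and 22.8 FPKM, 19.7, 25.3, 34.5 and 27.4 FPKM and 34.7, 23.0, 20.3 and 22.6 FPKM in the same order, with changes of 0.17 as deposited and -0.39 rescaled. α-Mannosidase (Man2b1) was at 47.4, 54.9, 41.0 and 55.7 FPKM, 42.3, 57.8, 67.2 and 62.6 FPKM and 72.9, 52.0, 54.6 and 53.5 FPKM, with changes of 0.19 and -0.37. The glycogen-degrading α-glucosidase (Gaa), at 26.6 to 34.1 FPKM in control mice and 23.9 to 49.0 FPKM in CKD mice, had a change of -0.0095 as deposited and -0.57 rescaled. Naglu, Man2b1 and Gaa were called in neither, and their groups overlapped.

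Because Ctsa, Glb1 and Neu1 form 1 complex and Glb1 and Hexa act on successive gangliosides of a breakdown pathway, ratios within a mouse were computed, which no factor applied to a whole mouse can change. These ratios were chosen after the values were seen and are given without a test. The ratio of Ctsa to Neu1 transcript was 0.798 to 1.04 in control mice and 2.06 to 3.54 in CKD mice, and that of Ctsa to Glb1 was 1.38 to 1.59 and 2.98 to 4.85. The ratio of Hexa to Glb1 was 0.289 to 0.389 in control mice and 1.66 to 2.02 in CKD mice. In CKD+Fe mice these 3 ratios ran from 2.15 to 3.22, from 3.20 to 5.69 and from 1.31 to 3.37, overlapping the CKD mice each time.

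Among the 7 genes of lipid handling, 3 rose and 1 fell as deposited, 2 were higher and 2 lower after rescaling, and 2 were higher and 1 lower with quantile normalization. NPC2 and NPC1 hand cholesterol on from the lysosomal lumen to its membrane and out. Npc2 ranged from 41.2 to 53.7 FPKM in control mice and from 84.1 to 126.3 FPKM in CKD mice and rose by 1.04 (SE 0.16, adjusted p = 0.000106; 0.47 rescaled). The rescaled rise of Npc2 was not called without the 3 mice that stood apart (0.24, adjusted p = 0.0983). Npc1, at 3.66 to 5.44 FPKM in control mice and 9.17 to 13.0 FPKM in CKD mice, rose by 1.09 (adjusted p = 0.000188; 0.59 rescaled), and with quantile normalization its change of 0.39 was not called. Acid ceramidase (Asah1) ranged from 39.7 to 58.8 FPKM in control mice and from 61.1 to 117.8 FPKM in CKD mice, with a rise of 0.96 as deposited (adjusted p = 0.000864) and a rescaled change of 0.40 that was not called.

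Acid sphingomyelinase (Smpd1, chromosome 7, 105554360 to 105558389), which makes ceramide from sphingomyelin, was measured at 57.0, 50.9, 47.8 and 48.5 FPKM in control mice, 39.8, 34.8, 48.2 and 34.9 FPKM in CKD mice and 41.7, 42.1, 38.0 and 41.4 FPKM in CKD+Fe mice. CKD mouse 110310 overlapped the control range and the other 3 CKD mice were below it, and Smpd1 fell by 0.37 (SE 0.12, adjusted p = 0.0163; -0.94 rescaled). The call was lost without control mouse 012811, CKD mouse 022301 or CKD mouse 120102, at an adjusted p of 0.0572, 0.0524 and 0.0520. Prosaposin (Psap), the precursor of the saposins that help enzymes reach membrane lipids, had the second highest level of all 40 genes in control mice. It was at 771, 791, 598 and 889 FPKM in control mice, 690.0, 767, 1174 and 835 FPKM in CKD mice and 1578, 876, 904 and 886 FPKM in CKD+Fe mice, with changes of 0.17 as deposited and -0.41 rescaled, and it was not called.

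Ppt1, which removes palmitate from proteins, was at 43.1, 44.0, 34.4 and 53.6 FPKM in control mice, 50.2, 58.2, 47.4 and 43.7 FPKM in CKD mice and 44.2, 53.4, 50.4 and 48.2 FPKM in CKD+Fe mice, with overlapping groups and changes of 0.19 as deposited and -0.37 rescaled. The acid lipase of cholesteryl esters (Lipa) had a wide range in control mice, with 30.6 to 127 FPKM in control mice and 60.1 to 82.4 FPKM in CKD mice, and was not called (-0.13). Without control mouse 042301, the lowest of that range, it was called lower, at -0.58 (adjusted p = 0.0154).

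**Figure D2:**
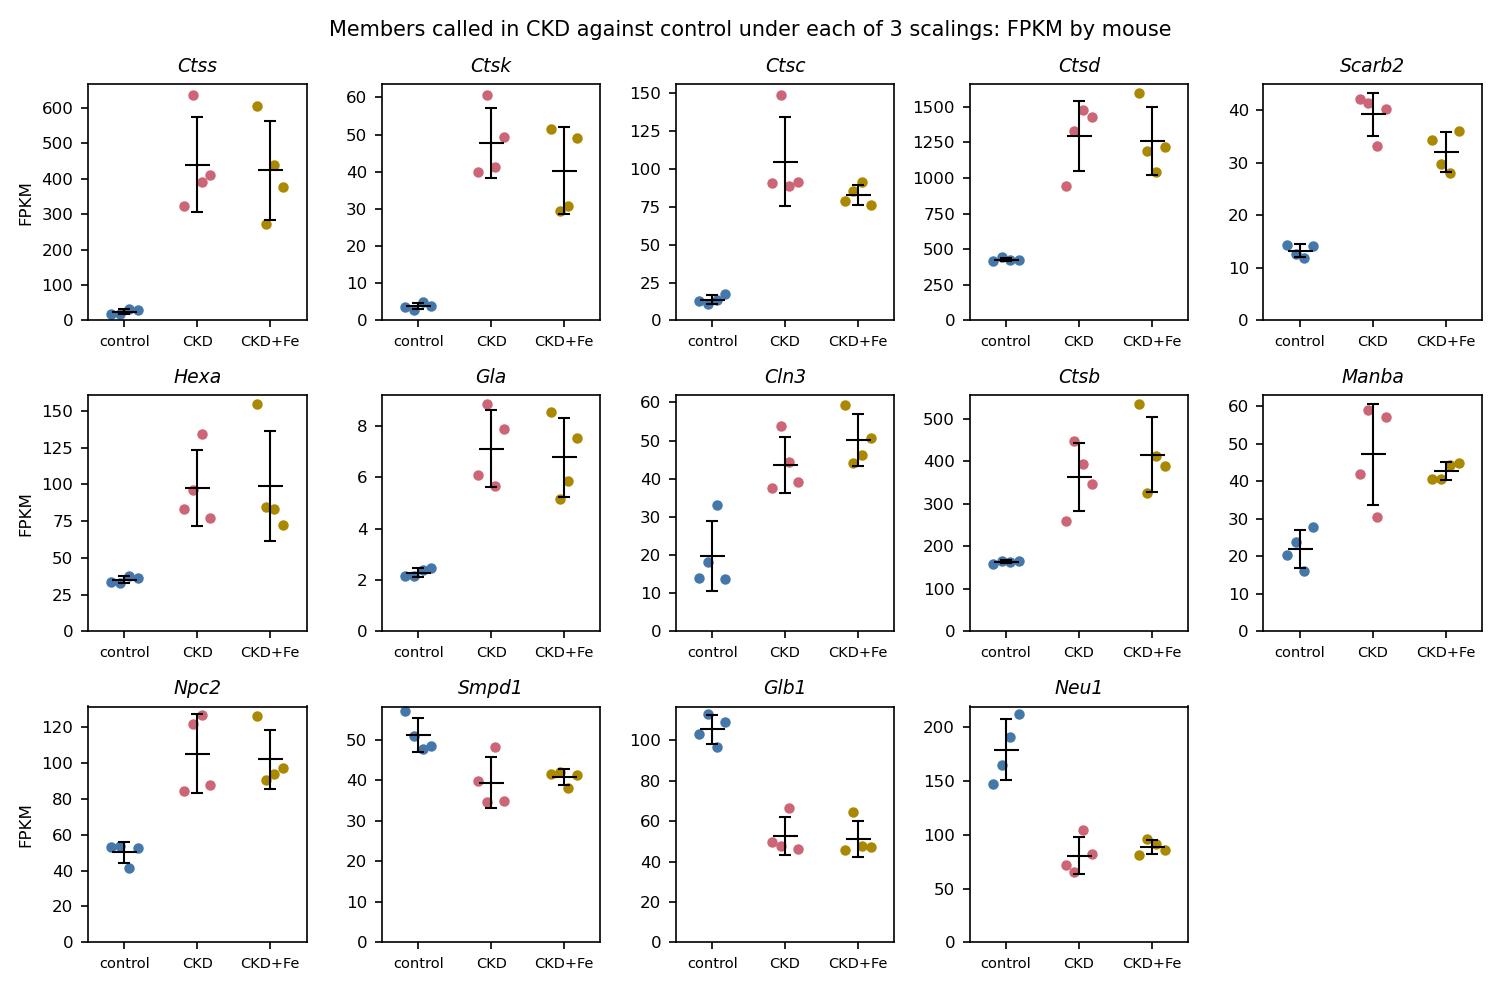
FPKM in each of the 12 mice for the 14 lysosome genes called in CKD compared with control under each of 3 scalings, ordered from the largest rise (Ctss) to the largest fall (Neu1); points are mice and bars are the mean ± SD of 4 mice. Control and CKD mice do not overlap except for Smpd1, and the CKD+Fe mice overlap the CKD mice in every panel. The 14 genes were picked by their calls in these same values, so their lack of overlap is no separate result.

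Of the 6 membrane proteins, 2 rose as deposited, Scarb2 and Cln3, and after rescaling the same 2 were higher and the other 4 lower. With quantile normalization 3 were higher and none lower. LAMP-1 (Lamp1, chromosome 8, 13159161 to 13175338) was measured at 714, 668, 458 and 721 FPKM in control mice, 596, 527, 625 and 576 FPKM in CKD mice and 659, 586, 564 and 567 FPKM in CKD+Fe mice. The control range was widened by mouse 042301, and the change was -0.12 (SE 0.16, adjusted p = 0.517) as deposited, -0.70 rescaled and 0.15 with quantile normalization. Without the 3 mice that stood apart, Lamp1 was called lower at -0.31 (adjusted p = 0.0255). Of its exonic bases, 9.31% overlap Grtp1 on the opposite strand. LAMP-2 (Lamp2, chromosome X, 38401357 to 38456454), which also serves chaperone-mediated autophagy, was at 440.1, 409, 310.3 and 541 FPKM, 419, 379, 266 and 418 FPKM and 291, 378, 368 and 388 FPKM in the same order. Its groups overlapped, and its change was -0.19 (SE 0.19, adjusted p = 0.390) as deposited, -0.77 rescaled and 0.11 with quantile normalization.

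LIMP-2 (Scarb2, chromosome 5, 92441314 to 92506833), which carries glucocerebrosidase to lysosomes, was measured at 14.4, 12.7, 11.8 and 14.1 FPKM in control mice, 42.1, 41.4, 33.2 and 40.3 FPKM in CKD mice and 34.4, 29.8, 27.98 and 36.1 FPKM in CKD+Fe mice. The level rose 2.96-fold in CKD (log2 1.495, SE 0.13, adjusted p = 6.86e-07; 0.95 rescaled), without overlap. Cln3, the membrane protein mutated in juvenile Batten disease, was at 14.03, 18.2, 33.1 and 13.8 FPKM, 37.6, 53.8, 44.3 and 39.0 FPKM and 59.4, 44.0, 46.2 and 50.6 FPKM in the same order. Its rise was 2.21-fold (log2 1.18, SE 0.23, adjusted p = 0.000530; 0.62 rescaled), and control mouse 042301 lay nearest to the CKD mice. Of its exonic bases, 7.65% overlap Apobr on the opposite strand.

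The tetraspanin CD63 (Cd63) had the highest mean of the 40 genes in each group. It was at 1218, 1235, 1483 and 1087 FPKM in control mice, 1166, 1285, 1538 and 1271 FPKM in CKD mice and 1330.5, 1414, 1183 and 1193 FPKM in CKD+Fe mice, and had a change of 0.069 as deposited, -0.51 rescaled (called lower, adjusted p = 0.0196) and 0.30 with quantile normalization (called higher, adjusted p = 0.0311). Of the words of 50 bases in its transcripts, 11.0% also occur in Cd63-ps, a pseudogene, or in Klhl41. Mucolipin 1 (Mcoln1), a channel that lets calcium and iron out of the lysosome, was at 36.1, 48.2, 65.9 and 35.6 FPKM, 40.6, 49.0, 43.2 and 44.7 FPKM and 50.3, 56.2, 47.9 and 56.6 FPKM. The 4 CKD mice lay inside the control range, and the change in CKD was -0.022 as deposited and -0.59 rescaled. Without control mouse 042301 it was 0.16 as deposited (adjusted p = 0.302). The ratio of Ctsd to Lamp1 was 0.583 to 0.926 in control mice and 1.58 to 2.52 in CKD mice, and that of Scarb2 to Lamp2 was 0.0261 to 0.0381 and 0.0964 to 0.125.

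Of the 4 proton pump subunits, none was higher and 1 lower in CKD as deposited, none higher and 4 lower after rescaling, and 1 higher and none lower with quantile normalization. Atp6v1h, a regulatory subunit of the part of the pump that splits ATP, was at 79.3, 75.6, 86.6 and 84.0 FPKM in control mice, 71.0, 59.9, 59.9 and 64.0 FPKM in CKD mice and 61.7, 74.1, 72.6 and 67.7 FPKM in CKD+Fe mice. No CKD mouse reached the lowest control mouse, and it fell by 0.35 (SE 0.11, adjusted p = 0.0124; -0.92 rescaled, and -0.28, not called, with quantile normalization). Atp6v0d1, of the membrane part, had a change of -0.36 as deposited (adjusted p = 0.0548) and was called without CKD mouse 110310 (-0.52, adjusted p = 0.00266). That mouse was at 119.8 FPKM, against 75.5 to 79.5 FPKM in the other CKD mice and 103.1 to 115.5 FPKM in control mice. The catalytic subunit gene Atp6v1a was at 76.8 to 155 FPKM in control mice and 64.7 to 133 FPKM in CKD mice and had a change of -0.23 as deposited, -0.80 rescaled and close to 0 with quantile normalization. The accessory subunit gene Atp6ap1 was at 125, 126, 140.4 and 131 FPKM, 143, 153, 138 and 138 FPKM and 160.2, 147, 155 and 146 FPKM in the same order of groups. It was called in opposite directions, at -0.44 rescaled (adjusted p = 0.00192) and 0.40 with quantile normalization (adjusted p = 0.00846), and was not called as deposited (0.13).

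Of the regulators, Tfe3 (chromosome X, 7762560 to 7775202) and Grn rose as deposited, none was called after rescaling, and Grn was higher with quantile normalization (1.28, adjusted p = 0.000498). Tfe3 was measured at 9.35, 9.93, 10.3 and 9.72 FPKM in control mice, 15.6, 18.5, 22.3 and 17.7 FPKM in CKD mice and 26.2, 16.2, 18.2 and 16.1 FPKM in CKD+Fe mice. Control and CKD mice did not overlap, and the change was 0.84 (SE 0.16, adjusted p = 0.000404) as deposited, 0.31 rescaled (adjusted p = 0.0993) and 0.32 with quantile normalization (adjusted p = 0.0940). Tfeb (chromosome 17, 47737030 to 47792419) was at 9.85, 13.95, 17.5 and 8.51 FPKM, 12.5, 15.9, 23.6 and 12.8 FPKM and 22.8, 13.7, 14.1 and 14.8 FPKM in the same order, with overlapping groups. Its change was 0.36 (SE 0.24, adjusted p = 0.206) as deposited, -0.18 rescaled and -0.15 with quantile normalization. Both proteins are controlled mainly through their entry into the nucleus, which transcript levels do not show. Progranulin (Grn), a chaperone of lysosomal enzymes, went from 80.5 to 146.4 FPKM in control mice to 143.6 to 324.7 FPKM in CKD mice, with a rise of 1.04 (adjusted p = 0.00350) and a rescaled change of 0.47 that was not called. Its groups overlapped through control mouse 042301, which stood apart.

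**Figure D3:**
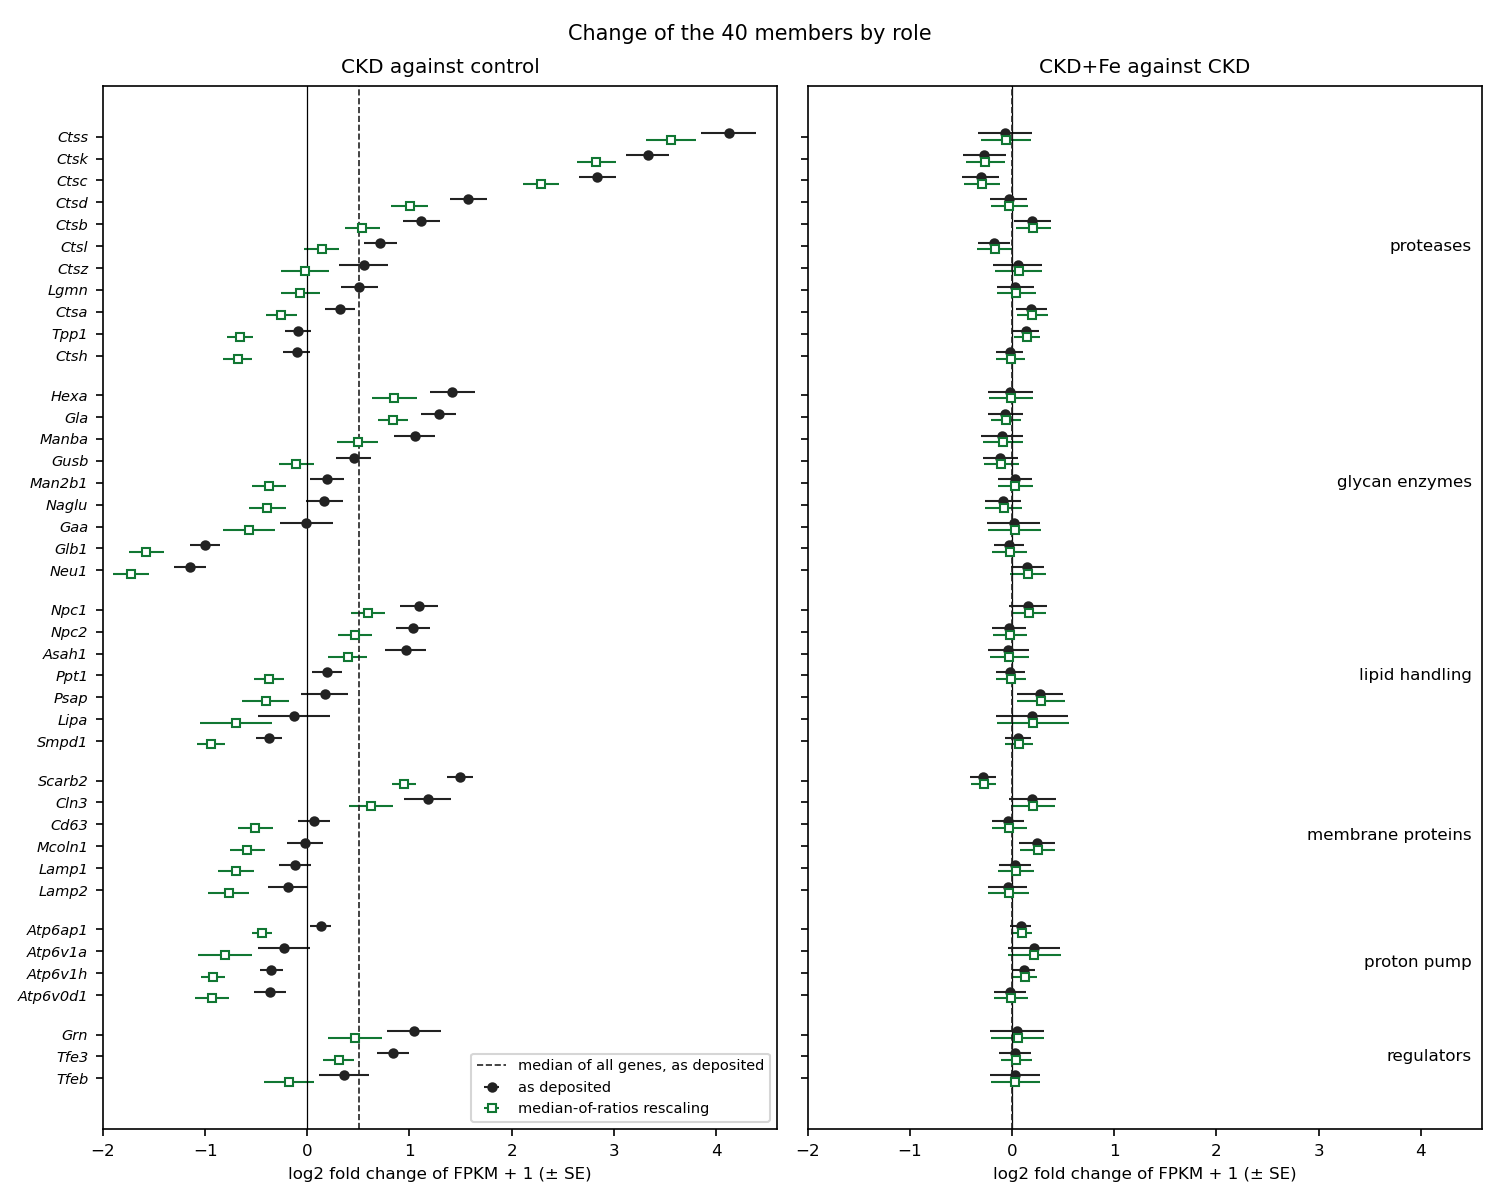
Log2 fold change (± SE) of the 40 lysosome genes, grouped by role, for CKD compared with control (left) and CKD+Fe compared with CKD (right); filled circles are values as deposited, open squares after median-of-ratios rescaling, and the dashed line is the median of all genes as deposited. On the left the genes spread from -1.15 (Neu1) to 4.12 (Ctss), and on the right they lie between -0.30 and 0.27.

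Of a further 66 lysosomal genes outside the list, 33 rose (50%, all genes 54.6%) and 15 fell (22.7%, all genes 13.3%) in CKD as deposited, with a median of 0.43. After rescaling 16 were higher (24.2%, all genes 28.8%) and 26 lower (39.4%, all genes 29.3%), and with quantile normalization 23 were higher (34.8%, all genes 23.3%) and 10 lower (15.2%, all genes 25.6%). The largest changes were those of Gpnmb, Cd68 and Slc11a1, membrane proteins known from macrophages. Gpnmb rose from a mean of 1.42 ± 2.01 FPKM (SD, n = 4) in control mice to 39.9 ± 14.99 FPKM (SD, n = 4) in CKD mice. Cd68 rose from 8.93 ± 5.66 to 91.9 ± 38.8 FPKM and Slc11a1, a metal transporter of phagosomes, from 2.20 ± 0.70 to 25.3 ± 7.94 FPKM (SD, n = 4 each).

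The make-up of the lysosomal transcript pool is given by each gene's share of the summed FPKM of the 40 genes in the same mouse, which does not depend on a factor between mice. The pool itself was 0.834% to 1.11% of all FPKM in control mice, 1.42% to 1.74% in CKD mice and 1.46% to 1.86% in CKD+Fe mice. Proteases made up 29.2% ± 0.50 of the pool in control mice and 45.0% ± 3.48 in CKD mice (SD, n = 4 each). Ctsd alone went from 6.73% ± 0.41 to 14.9% ± 1.42, and Ctss from 0.385% ± 0.13 to 5.08% ± 1.36 (SD, n = 4 each). Membrane proteins went from 37.8% ± 1.78 to 27.9% ± 2.56 and the pump subunits from 7.01% ± 0.13 to 4.69% ± 0.80 (SD, n = 4 each). A share also falls when other genes of the pool rise. As deposited, the membrane proteins summed to 2362 to 2436 FPKM in control mice and 2300 to 2550 FPKM in CKD mice. The pump subunits summed to 417.5 to 473.4 and 382.6 to 422.6 FPKM, and the whole pool to 5902 to 6727 and 7263 to 9585 FPKM. Lamp1 was 7.77% to 11.2% of the pool in control mice and 5.88% to 8.20% in CKD mice, which overlapped, and Cd63 was 16.2% to 25.1% and 14.3% to 16.1%, which did not.

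**Figure D4:**
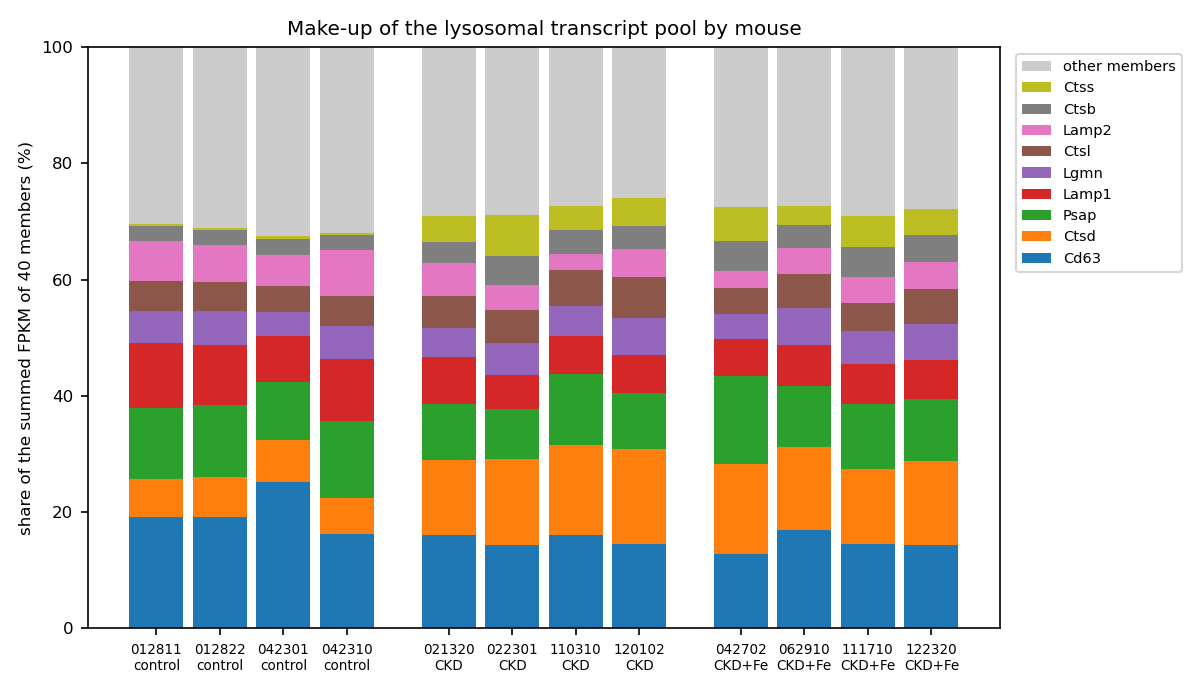
Make-up of the summed FPKM of the 40 lysosome genes in each mouse (stacked bars to 100%, 1 bar a mouse, 4 mice a group), showing the 9 genes with the largest mean share and the rest together. The segment of Ctsd is larger in all 8 mice on the adenine diet (12.8% to 16.3%) than in the 4 control mice (6.26% to 7.19%).

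Between CKD+Fe and CKD mice none of the 40 genes passed the threshold in limma, and each of the 40 had CKD+Fe values that overlapped its CKD values. The share of all genes with such overlap was not computed. Among all genes 0.00761% (1 gene) were called higher and 0% lower. The 40 changes ran from -0.30 to 0.27 on the log2 scale with a median of 0.021, and 1 gene, Scarb2, had an unadjusted p under 0.05. Array quality weights (all genes 0.601% higher and 0.426% lower) and a fit of the 2 groups alone (0% and 0%) also called 0 of the 40. Scarb2 went from a mean of 39.3 to 32.1 FPKM, with a change of -0.29 (95% interval -0.56 to -0.014, unadjusted p = 0.0409, adjusted p = 0.811), and CKD mouse 110310 overlapped the CKD+Fe mice. The next smallest unadjusted p were those of Ctsc, Mcoln1 and Ctsk. Ctsc was at -0.30 (95% interval -0.69 to 0.085), Mcoln1 at 0.24 (-0.13 to 0.62) and Ctsk at -0.27 (-0.72 to 0.18).

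A change that misses the threshold does not show that the groups are alike. For Ctss the 95% interval of the difference ran from -0.64 to 0.51, for Neu1 from -0.19 to 0.49 and for Glb1 from -0.35 to 0.28. The widest was that of Lipa, from -0.55 to 0.95, and that of Lamp1 ran from -0.31 to 0.37. For Tfeb and Tfe3, the intervals were -0.50 to 0.55 and -0.31 to 0.37. The 16 macrophage and monocyte markers were not called either, with 0 of 16 at an unadjusted p under 0.05 and a median change of -0.040. Of the further 66 lysosomal genes 0 were called, and 2 had an unadjusted p under 0.05.

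Compared with the same 4 control mice, CKD+Fe mice had 19 of the 40 genes higher (47.5%, all genes 54.4%) and 4 lower (10%, all genes 11.0%) as deposited. The 11 genes called higher under all 3 scalings were those of the CKD comparison with Npc1 in place of Manba, and the 3 called lower were Glb1, Neu1 and Smpd1 (15.6% of all genes were called higher and 9.85% lower under the 3 scalings). Smpd1 lost its call in 6 of 8 fits with 1 mouse left out, at an adjusted p from 0.0541 to 0.117. Both comparisons share their control mice and are therefore not independent. Ctss was 4.05 above control on the log2 scale in CKD+Fe mice, next to 4.12 in CKD mice. For Ctsc the values were 2.53 and 2.84, for Scarb2 1.21 and 1.495, for Neu1 -0.996 and -1.15, and for Glb1 -1.04 and -1.004. Ctsa was 0.51 above control in CKD+Fe mice as deposited (adjusted p = 0.00920) and at -0.056 after rescaling, and the difference between CKD+Fe and CKD mice was 0.19 (95% interval -0.14 to 0.51).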

How the data were processed

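Stranded mRNA libraries of whole kidneys were sequenced in single reads of 50 bases. The submitters' processing notes name bcl2fastq 2.19, STAR 2.5.2, Cufflinks 2.1.1 and GRCm38. The authors deposited FPKM values per gene, and whether strand was used in the quantification is not given in the sources used here. Of the deposited values, 30 marked as failed were treated as missing, none of them in a lysosome gene.

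Genes that reached 1 FPKM in 4 or more mice were tested with limma 3.58.1 in R 4.3.3 on log2(FPKM + 1) with a variance trend and all 12 mice in 1 fit, adjusted by Benjamini-Hochberg over 13148 genes at a threshold of 0.05. Fold changes on this scale understate those of low genes. Counts were not analysed here, so the count test named in the study's methods was replaced by limma. The limma fit was tried on simulated data. Those data held no shift of the typical gene between groups and no mice that stood apart, so the trial does not cover these features. Rescaling divided each mouse by its median ratio to the geometric mean of all mice. The gene list and the marker lists were chosen with earlier results of these data known.

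Values in each mouse are printed for the 8 largest rises and the 8 largest falls past the threshold, the 4 smallest p with iron, Tfeb, Tfe3, Lamp1, Lamp2 and genes whose direction changed on rescaling. Of each marker list at most the 3 largest changes were named. Promoters and annotation were read from RefSeq (GRCm38.p6) and GENCODE M21. Alternatives were other pseudocounts, filters, scalings, fits and thresholds and each mouse left out. The 2 without the mice that stood apart were chosen after seeing the data. Motifs and ratios between genes were also chosen then.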

Additional observations from a re-analysis of the deposited data

Results flagged for a closer look

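In 12 of the 120 sets of 4 mice (40 genes in 3 groups, 10%), 1 mouse lay far from the other 3, with a gap to its neighbour above Dixon's critical value at 95%. Chance gives about 1 in 20 such sets for normally distributed values. The 40 genes come from the same 12 mice and are not independent, so an excess over chance was not tested. Of the 12 sets, 9 fell in the 3 mice that stood apart, which were themselves picked by how many genes lay far from their group.

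CKD+Fe mouse 042702 accounted for 5, each with a high value. It was at 256 FPKM for Ctsz (the other 3 mice 139.8 to 145.5), 54.0 FPKM for Gaa (24.2 to 27.1), 72.9 FPKM for Man2b1 (52.0 to 54.6), 1578 FPKM for Psap (876 to 904) and 22.8 FPKM for Tfeb (13.7 to 14.8). Control mouse 042301 was low for 3 genes, with 245 FPKM for Lgmn (the others 351.6 to 375), 41.2 FPKM for Npc2 (52.3 to 53.7) and 458 FPKM for Lamp1 (668 to 721). CKD mouse 110310 was high for Atp6v0d1, at 119.8 FPKM (75.5 to 79.5).

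The other 3 were in mice that did not stand apart. Ctsc was at 149 FPKM in CKD mouse 022301 (the others 88.5 to 91.4), Glb1 was at 64.6 FPKM in CKD+Fe mouse 062910 (45.8 to 47.7), and Smpd1 was at 38.0 FPKM in CKD+Fe mouse 111710 (41.4 to 42.1).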

How the results depend on the processing

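Median-of-ratios rescaling moved the counts of called genes, whereas quantile normalization left each within 1.5 times. With quantile normalization 19 were higher (all genes 23.3%) and 3 lower (25.6%) in CKD. In CKD+Fe compared with control 21 were higher (all genes 19.8%) and 3 lower (22.6%). Between CKD and control mice, 4 genes were lower as deposited (all genes 13.3%), 14 after median-of-ratios rescaling (29.3%), 7 without the 3 mice that stood apart (15.7%), 19 with both (33.9%) and 7 at an adjusted p under 0.5 (20.4%). Between CKD+Fe and control mice, 19 genes were higher as deposited (54.4%) and 11 after rescaling with or without the 3 mice (27.7% and 31.3%), and 4 were lower as deposited (11.0%), 13 after rescaling (27.5%), 18 with both (31.3%) and 7 at an adjusted p under 0.5 (18.2%). With 1 mouse left out at a time, 17 to 20 genes were higher in CKD (all genes 50% to 55.9%) and 3 to 5 lower (11.8% to 14.3%). In CKD+Fe compared with control, 18 to 21 were higher (50% to 54.7%) and 2 to 3 lower (9.42% to 11.1%). Between CKD+Fe and CKD 0 were called in each fit (all genes 0% to 0.0685% higher and 0% to 0.0304% lower).

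Changes in CKD that turned sign on rescaling were those of Ctsa (-0.25), Ctsz (-0.023), Lgmn (-0.067), Gusb (-0.11), Naglu (-0.39), Man2b1 (-0.37), Psap (-0.41), Ppt1 (-0.37), Cd63 (-0.51), Atp6ap1 (-0.44) and Tfeb (-0.18). With rescaling and without the 3 mice they were those of Ctsa (-0.36), Ctsl (-0.035), Ctsz (-0.21), Lgmn (-0.28), Gusb (-0.22), Naglu (-0.53), Man2b1 (-0.58), Psap (-0.71), Ppt1 (-0.50), Cd63 (-0.54), Atp6ap1 (-0.43) and Tfeb (-0.23). With quantile normalization they were those of Ctsh (0.29), Tpp1 (0.00052), Naglu (-0.15), Lamp1 (0.15), Lamp2 (0.11), Atp6v1a (0.00018) and Tfeb (-0.15). Array quality weights turned Psap (-0.0073) and Mcoln1 (0.10), and leaving out the 3 mice as deposited turned Psap (-0.098) and Mcoln1 (0.17). With 1 mouse left out, Tpp1 ran from -0.15 to 0.021, Gaa from -0.23 to 0.10, Lipa from -0.58 to 0.089, Cd63 from -0.0093 to 0.15 and Mcoln1 from -0.13 to 0.16. Their cause was not tested.

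No paired analysis was possible because the groups share no replicate numbers. FPKM carry no counts, so the precision rests on 4 mice a group, and depth was only estimated.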
